A study of Mus musculus with 24 samples.

Results

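The genes described here encode the respiratory chain and ATP synthase of mitochondria. They were taken by gene symbol, as all symbols that begin with Nduf followed by a, b, c, s or v, the 4 genes Sdha to Sdhd, all that begin with Uqcr, all that begin with Cox and a digit from 4 to 8, and all that begin with Atp5. The rule found 93 of the 17109 genes listed in both the M1 and the M2 files: 40 of complex I, 8 assembly factors of complex I (Ndufaf), 4 of complex II, 8 of complex III, 16 of complex IV, 16 of complex V and Atp5s, a coupling factor that is not a subunit. Of these, 87 were at 1 FPKM or more in at least 3 of the 12 M1 libraries and entered the M1 tests, and 90 did so in M2, so 6 and 3 members were not tested. All 87 were also among the 90.

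The study asked how dopamine (DA) acts on macrophage polarization through its receptor DRD5. Bone marrow-derived macrophages (BMDMs) of male C57BL/6 mice, 10 weeks old, were either wild type (WT) or DRD5-/-, the latter from a line made with CRISPR-Cas9 and lacking the receptor in all cells. All were stimulated for 12 hours, either toward the inflammatory M1 state with LPS at 100 ng/ml and IFN-γ at 50 ng/ml or toward the M2 state with IL-4 and IL-13 at 10 ng/ml each, and each was left without DA or treated with it, at 20 µM by the study's descriptions. This gave 8 groups of 3 libraries, 24 in all, and no group without a stimulus. The deposited labels name both bone and colon as the source, and the study's methods name the marrow of leg bones.

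Values are FPKM, which scale fragments by transcript length and by the mapped total of the library, and carry 2 decimals. They summed to between 476190 and 494460 per M1 library and between 482310 and 503800 per M2 library, and the low values could not be resolved into whole reads, so depth is unknown. The summed FPKM of 8 macrophage markers was 7262.6 or more in every library, of which Lyz2 was at 4563.2 or more. Markers of M1 summed to at least 4827.1 FPKM in M1 libraries and at most 23.92 in M2 libraries, as labelled. Markers of M2 summed to at least 496.1 FPKM in M2 libraries and at most 207.4 in M1 libraries. Arg1, an M2 marker, went the other way, with a median of 63.3 FPKM over the M1 and 33.9 over the M2 libraries. Drd5 itself does not check the genotypes: it is not listed for M1, and in M2 it was at 0 in 10 of 12 libraries, with a highest value of 0.06 FPKM. The labels do not say what the replicate numbers stand for, so p-values measure the spread between these libraries, which may be technical. RNA of the whole culture was sequenced, and fewer cells of a type and less RNA per cell cannot be told apart.

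Complexes I, III and IV pass electrons from NADH, or from succinate by way of complex II, to oxygen and pump protons across the inner mitochondrial membrane, and complex V, ATP synthase, lets the protons return and makes ATP. In mouse macrophages, stimulation with LPS and IFN-γ is known to shift energy supply toward glycolysis, while IL-4 is known to go with active oxidative phosphorylation. The nuclear genes of the chain are known targets of the transcription factors NRF1, GABPA and YY1. The subunits encoded by mitochondrial DNA were not analysed here.

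Promoters are shown because the members are usually described as a group with shared upstream elements. Whether such elements have a part in the changes with DA was not tested. RefSeq windows on GRCm38.p6, from 250 bases before to 50 bases after a start site, were at hand for 75 of the 93 genes. They were searched on both strands for GCGCA followed by any base and GCGC (NRF1), CCGGAAGT (GABPA) and AAGATGGCG (YY1), each counted on its own with no merging of overlaps. The NRF1 letters were in 25.0% of the members' windows, compared with 4.60% of all windows and 10.3% of those of the genes in the fit of all 24 libraries. For YY1 the shares were 10.0%, 1.40% and 3.17%, and for GABPA 6.25%, 3.89% and 8.48%. By complex, the NRF1 letters were found for 6 of 14 complex V genes, 7 of 33 complex I genes, 2 of 3 complex II genes, 1 of 5 complex III genes and 1 of 12 complex IV genes. These shares describe letters only, and 45 of the 75 genes held none of the 3 motifs.

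The 120 bases before the start site of 5 members are printed 5′ to 3′ on the strand of the gene, with motif letters in capitals. The 5 were chosen after their values were seen, as members that moved with DA and held motif letters within these 120 bases. The letters begin at positions from -113 (Ndufaf4) to -11 (Uqcrh) relative to the start site. Ndufb4 (chr16:37654369-37654488, minus strand) and Atp5g2 (chr15:102671048-102671167, minus strand) fell with DA in WT M1. Ndufs5 (chr4:123718187-123718306, minus strand) and Ndufaf4 (chr4:24897963-24898082, plus strand) rose with DA in WT M2. Uqcrh (chr4:116075071-116075190, minus strand) fell with DA in WT M2. The capitals are NRF1 letters in the first 4 and the GABPA letters, on the opposite strand, in Uqcrh.
Ndufb4: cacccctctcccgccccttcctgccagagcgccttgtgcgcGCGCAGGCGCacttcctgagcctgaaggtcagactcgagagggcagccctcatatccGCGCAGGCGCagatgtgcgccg
Atp5g2: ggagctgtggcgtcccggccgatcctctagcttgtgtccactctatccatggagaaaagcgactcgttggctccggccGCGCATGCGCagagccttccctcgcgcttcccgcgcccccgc
Ndufs5: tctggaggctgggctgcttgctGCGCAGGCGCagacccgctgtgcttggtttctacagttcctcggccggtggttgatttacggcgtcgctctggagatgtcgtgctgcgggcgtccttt
Ndufaf4: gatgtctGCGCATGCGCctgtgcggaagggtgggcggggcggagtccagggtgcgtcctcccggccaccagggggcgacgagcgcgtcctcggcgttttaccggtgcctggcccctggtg
Uqcrh: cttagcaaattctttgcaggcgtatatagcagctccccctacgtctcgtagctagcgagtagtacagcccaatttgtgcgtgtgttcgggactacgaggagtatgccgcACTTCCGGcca
Among members that fell with DA in WT M1, 5 of the 11 with a window held the NRF1 letters, and among those that rose in WT M2, 4 of 10 did. Of those that fell in WT M2, 0 of 2 did, and of those with a lower DA effect in M1 than in M2, 9 of 27. Over all members with a window it was 19 of 75, and counts this small cannot be told from that share.

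The 93 genes made up about 1% of all FPKM in M1 libraries and more in M2 libraries. Their share of the FPKM sum was 1.15% ± 0.0223 (SD, n = 3) in WT M1 and 1.02% ± 0.0253 in DA-treated WT M1. It was 1.13% ± 0.0114 in DRD5-/- M1 and 1.12% ± 0.0277 in DA-treated DRD5-/- M1. In M2 it was 1.73% ± 0.0257 in WT, 1.71% ± 0.00547 in DA-treated WT, 1.70% ± 0.0174 in DRD5-/- and 1.54% ± 0.0158 in DA-treated DRD5-/- cells. In M1 the WT libraries with DA were thus the low group, whereas in M2 the DRD5-/- libraries with DA were.

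FPKM are per transcript length, and levels of genes are set beside each other here as a description only. How far their order depends on transcript length, GC content or near-identical gene copies was not tested. The highest median over the 24 libraries within each complex was 120 FPKM for Ndufa4 (named for complex I and now regarded as a complex IV subunit), 103 for Sdhc (membrane anchor of complex II), 142 for Uqcrb (complex III), 306.5 for Cox6a1 (complex IV) and 309 for Atp5b (catalytic β subunit of ATP synthase). The assembly factors, which act while complex I is built and do not stay in it, lay lower, between 2.02 for Ndufaf6 and 13.97 for Ndufaf8. The lowest subunit genes were Ndufa11b in complex I at 0.305, Sdha in complex II at 56.2, Uqcrq in complex III at 29.6 and Atp5mpl in complex V at 65.6. Cox8b, a muscle and heart isoform of complex IV, had a median of 0.

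For every complex, the mean of log2(FPKM + 1) over its members was computed in each library from the 86 subunit and assembly genes that passed in both stimuli. For complex V (16 genes) this mean was 6.63 ± 0.0358 (SD, n = 3) in WT M1 and 6.42 ± 0.0557 in DA-treated WT M1. In DRD5-/- M1 it was 6.63 ± 0.0205 without and 6.59 ± 0.0668 with DA. The DA-treated WT M1 libraries, at 6.36 to 6.47, lay below all other M1 libraries, which were at 6.52 or higher. In M2 the complex V mean was 7.22 ± 0.0279 in WT and 7.29 ± 0.00336 in DA-treated WT, and it was 7.20 ± 0.00610 in DRD5-/- and 6.99 ± 0.0243 in DA-treated DRD5-/- cells. Here the DRD5-/- libraries with DA were the low ones.

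**Figure D1:**
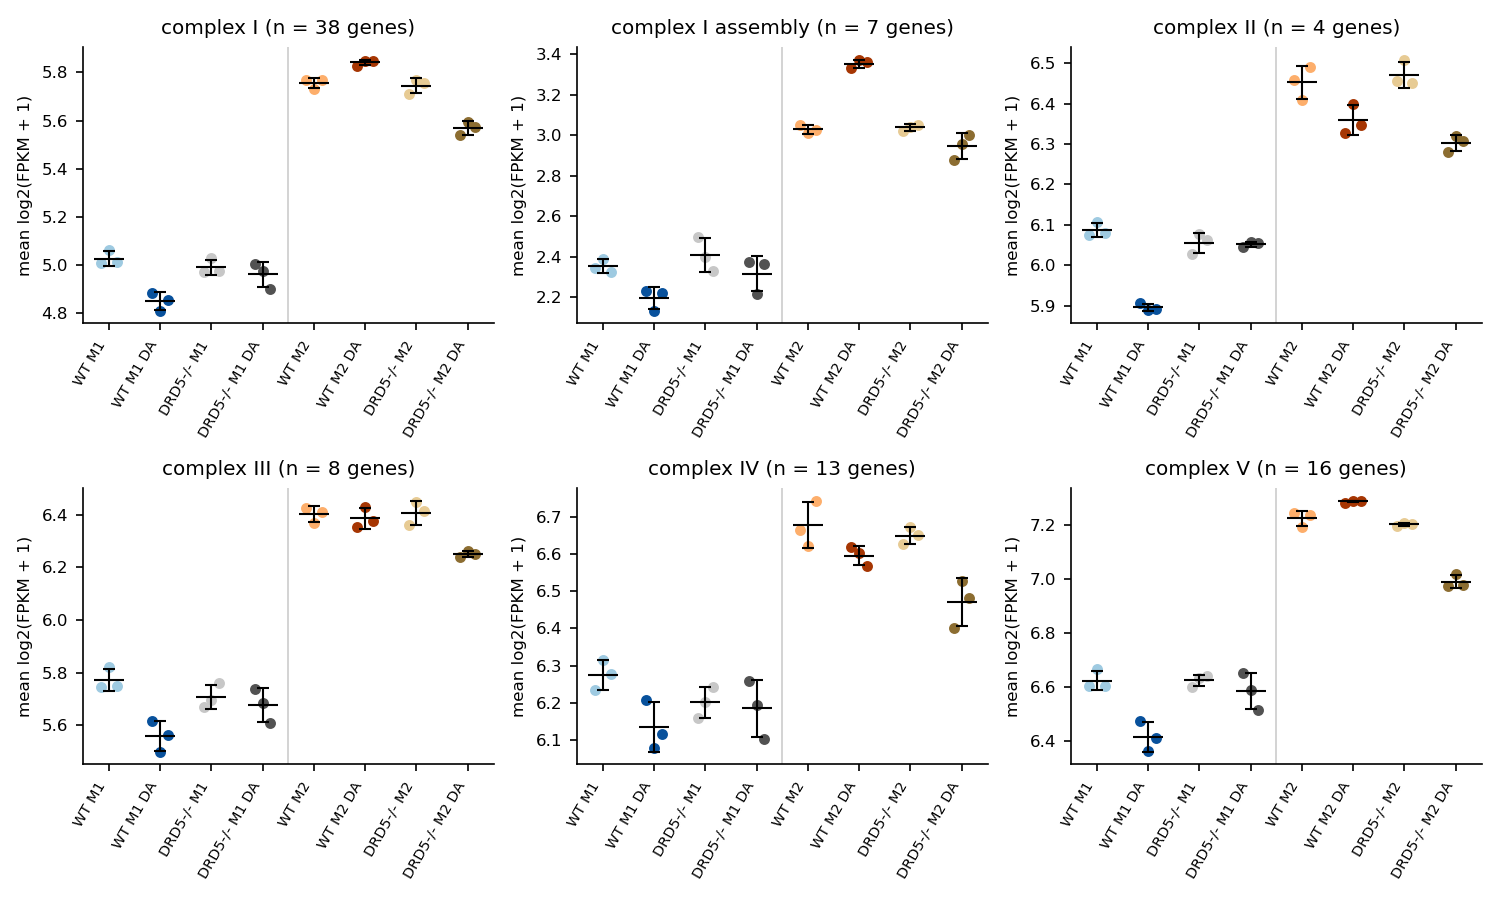
Mean log2(FPKM + 1) over the genes of each complex (vertical axes, different ranges) in the 8 groups of genotype, stimulus and DA; points are libraries and the bar and whiskers are the mean and SD of 3 libraries. In M1 the DA-treated WT libraries have the lowest mean in every panel, and in M2 the DA-treated DRD5-/- libraries do, while the assembly factors of complex I rise from 3.03 to 3.36 with DA in WT M2. For complex IV, DA-treated WT M1 libraries (6.08 to 6.21) overlap the DA-treated DRD5-/- M1 libraries (6.10 to 6.26). After rescaling by the median of ratios, not shown, the lowest M1 library for complex IV was replicate 3 of DA-treated DRD5-/- M1, at 6.30.

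In WT M1 BMDMs, some genes of complexes I, III and V fell with DA, by small amounts. Of 87 members tested, 12 fell and none rose past the threshold used throughout (a limma p below 0.001 after Benjamini-Hochberg adjustment, with at least a 1.2-fold difference), where 9.60% of all 10040 genes fell and 4.73% rose. At 13.8% the share of members that fell is not far from that background. Of the 12, 4 passed after rescaling by the median of ratios and 7 with no filter on low values. The difference was negative in 81 of 87 members, with a median of -0.17 (log2 of FPKM + 1) beside -0.07 over all genes. At an adjusted p under 0.05 with no minimum change, 54 members were lower and none higher, or 62.1%, where 32.1% of all genes were lower and 13.4% higher.

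Those that fell were 5 genes of complex I, 2 of complex III and 5 of complex V. Ndufs4, an accessory subunit next to the NADH-oxidizing part of complex I, was at 23.8, 22.9 and 23.5 FPKM without DA and at 18, 15.3 and 16.2 with DA. The groups did not overlap, and the log2 change was -0.48 (SE 0.06, limma adjusted p = 1.2e-05). Ndufb4, of the membrane arm, changed by -0.43 and Ndufs7, which carries the last iron-sulfur cluster before ubiquinone, by -0.39, with Ndufa6 and Ndufb8 at -0.32 each. Ndufb4 has near-identical copies such as Ndufb4c, and how the counting divided reads between them is not known. In complex III, Uqcrfs1, the Rieske iron-sulfur protein, went from 39.6, 40.0 and 40.2 to 31.6, 30.0 and 32.0 FPKM, a change of -0.35 (SE 0.04, limma adjusted p = 3.9e-06), and the core protein gene Uqcrc1 changed by -0.31.

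In complex V, the genes that fell include both subunits of the catalytic head. Atp5b was at 301, 306 and 293 FPKM without DA and at 241.5, 237.5 and 237 with DA. Every treated library was lower than every untreated one, with a log2 change of -0.33 (SE 0.03, limma adjusted p = 2.0e-07). Atp5a1, the α subunit, changed by -0.30, Atp5f1, a stalk subunit, by -0.31, and Atp5g2, a gene for the rotating c subunit, by -0.30. Atp5c1, the γ subunit, was at -0.21, under 1.2-fold. Atp5o, which encodes OSCP, the link between head and stalk, moved furthest in this complex, from 93.9, 96.7 and 96.0 to 72.1, 68.7 and 69.6 FPKM (log2 change -0.44, SE 0.04, limma adjusted p = 1.6e-06).

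None of the 13 complex IV and 4 complex II genes passed both conditions in WT M1, since their changes were below 1.2-fold or less certain. Sdha and Sdhb, the catalytic pair of complex II, were at -0.23 (limma adjusted p = 3.1e-05) and -0.24 (adjusted p = 0.00015), and Cox4i1 and Cox5a of complex IV at -0.26 and -0.28. The 7 assembly factors tested had a median of -0.20 and none passed.

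**Figure D2:**
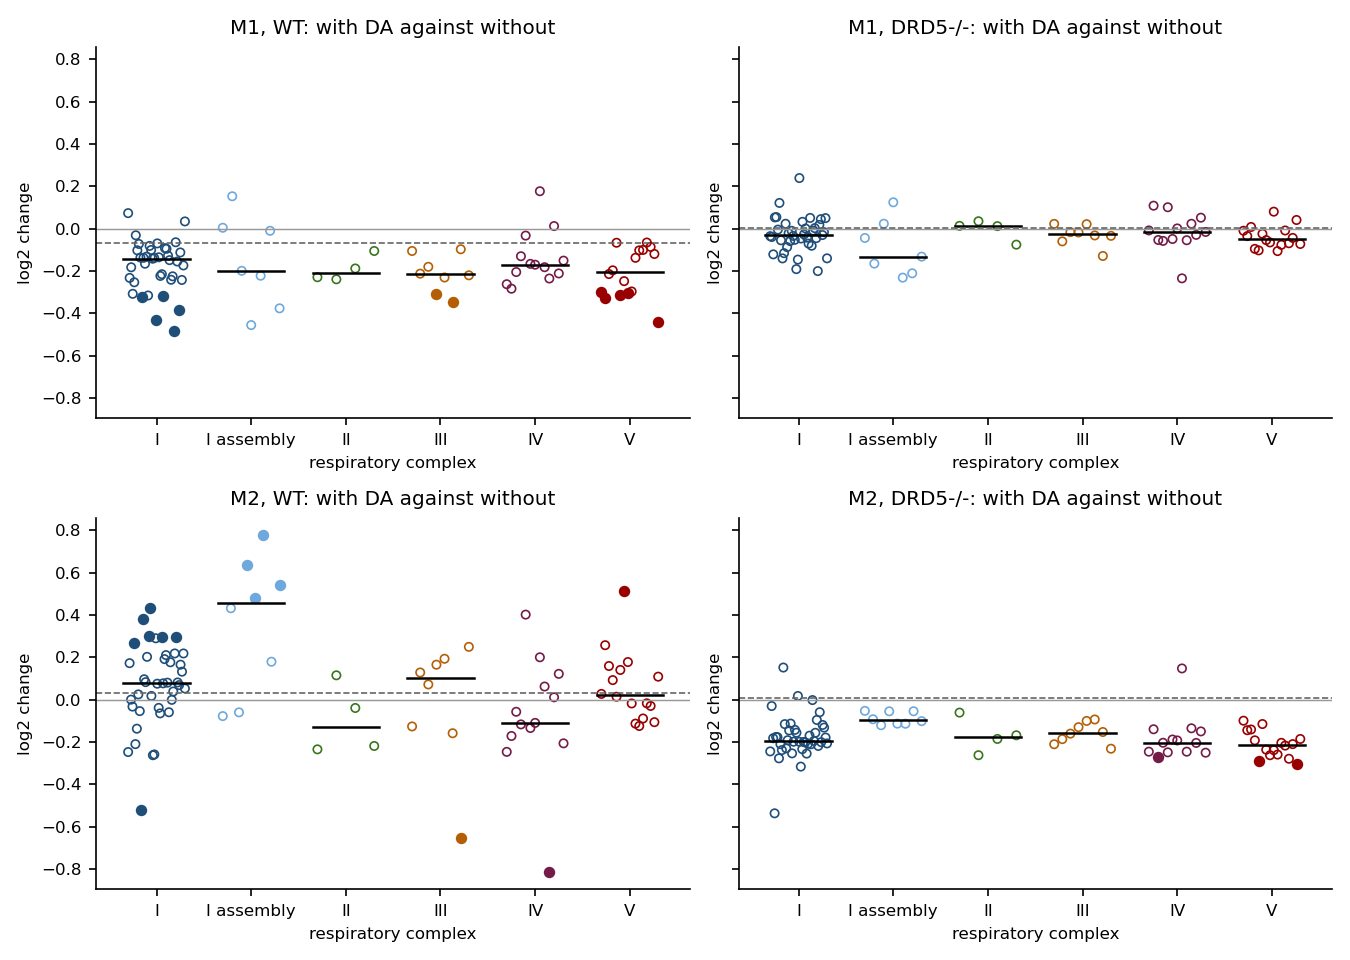
Log2 change with DA (vertical axis, log2 of FPKM + 1) of each member by complex, in M1 (top) and M2 (bottom), WT (left) and DRD5-/- (right); filled points passed the threshold, short bars are the medians of a complex, and the dashed line is the median of all genes tested. Nearly all points lie under 0 in WT M1 and in DRD5-/- M2, where 81 of 87 and 87 of 90 are negative, while WT M2 spreads from -0.82 to 0.78.

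With DA, DRD5-/- M1 BMDMs showed no such difference. No member passed the threshold (limma), nor did any of the 10040 genes, a background of 0%, and 8 members had an unadjusted p under 0.05. The members' median was -0.03, and their range was -0.24 to 0.24. Atp5b, for example, was at 296, 299.5 and 301 FPKM without and 303, 286 and 286.5 with DA. The difference between the genotypes in the effect of DA was then tested itself. It passed for 6 members, all with a lower effect in WT, namely Uqcrc1, Uqcrfs1, Atp5a1, Atp5b, Atp5f1 and Atp5o. Of all genes, 5.18% passed in that direction and 3.20% in the other. At 6.9%, the share of members in that direction is near the background. The interaction was -0.29 for Uqcrc1, -0.32 for Uqcrfs1, -0.29 for Atp5b and -0.37 for Atp5o (limma adjusted p = 8.3e-05, 0.0005, 5.0e-05 and 0.00049). With an adjusted p under 0.05 as the only condition, 29 passed, or 33.3% of members, where 30.2% of all genes passed. With libraries rescaled by the median of ratios, none of the 6 passed, and with no filter on low values 3 did. The 6 became 3 without WT M1 replicate 1, without WT M1 replicate 2 and without DA-treated WT M1 replicate 2. Beside these values, the summed FPKM of 8 M2 markers was 79.5 to 80.9 in WT M1 and 199 to 207 in DA-treated WT M1, and that of 8 neutrophil markers, of which Elane was at 0 in all M1 libraries, was 44.7 to 56.6 and 63.7 to 83.1. Of the M2 markers, Arg1 alone was at 56.9 to 185 FPKM over the M1 libraries, and the next highest, Mrc1, was at most 19.3. Of the neutrophil markers, S100a8 was at 13.8 to 43.4 FPKM, while Mpo was at most 0.08 and Ly6g at most 0.33. The part of these markers in the result was not tested.

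Without DA, genotype made little difference in M1. Ndufa3 was at 75.0, 81.2 and 90.1 FPKM in WT and at 59.95, 56.1 and 60.1 in DRD5-/- M1, a log2 difference of -0.47 (SE 0.06, limma adjusted p = 0.00036). Uqcrb was at 113, 122 and 128 FPKM in WT and 85.1, 92.2 and 97.7 in DRD5-/- M1, a difference of -0.40 (SE 0.05, limma adjusted p = 0.00021). Both encode small accessory subunits, and they were the only 2 of 87 members past the threshold, where 0.209% of all genes were lower and 0.727% higher in DRD5-/- cells. There were 8 members at an adjusted p under 0.05, or 9.2%, where 9.83% of all genes passed. The count of 2 became 0 without DRD5-/- M1 replicate 2, WT M1 replicate 2 or WT M1 replicate 3, became 1 without DRD5-/- M1 replicate 1 or 3, and was 0 with no filter on low values. The summed FPKM of the 8 neutrophil markers also differed between these groups, at 44.7 to 56.6 in WT and 14.7 to 18.2 in DRD5-/- M1. Over all M1 libraries S100a8 was at 13.8 to 43.4 FPKM, while Mpo was at most 0.08, Ly6g at most 0.33 and Elane at 0. The sum thus does not stand for all 8 genes, and the part of these markers in the genotype differences was not tested.

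When both genotypes carried DA, 14 members were lower in WT than in DRD5-/- M1 and 1 was higher, where 12.6% of all genes were lower and 5.95% higher. The members' share of 16.1% lower is not far from its background, and that of 1.15% higher is below its own. After rescaling by the median of ratios, 8 were lower and 3 higher. There were 49 members at an adjusted p under 0.05, or 56.3%, where 50.6% of all genes passed. The lower ones were led by Cox7c at -0.54, Ndufa12 at -0.51, Atp5g3 at -0.48 and Atp5o at -0.41, and they included the complex IV core genes Cox4i1 at -0.38 and Cox5a at -0.36. The higher one was Cox7a1, the isoform of subunit VIIa that is typical of heart and skeletal muscle, at 4.95, 4.50 and 4.07 FPKM in WT and 2.06, 2.54 and 2.24 in DRD5-/- cells (log2 difference 0.75, SE 0.09, limma adjusted p = 1.2e-05). Cox8b, another muscle isoform, was listed above 0 in 5 of the 6 WT M1 libraries, at up to 0.56 FPKM, and at 0 in all 6 DRD5-/- M1 libraries. The summed FPKM of 5 muscle and heart markers was 2.44 to 5.39 in the WT M1 libraries, with and without DA, and at most 0.11 in all other groups. Their part in the Cox7a1 difference was not tested.

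In WT M2 BMDMs, DA moved members in both directions, and assembly factors of complex I were among those that rose. Of 90 members, 11 rose and 3 fell, where 25.9% of all 10735 genes rose and 20.4% fell. The members' shares, 12.2% and 3.33%, were thus below the background in both directions. Their median was 0.07, beside 0.03 over all genes. At an adjusted p under 0.05, 36 were higher and 18 lower, or 40% and 20%, where 40.6% of all genes were higher and 33.7% lower. After rescaling by the median of ratios, 10 rose and 5 fell past the full threshold.

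Of the 8 assembly factors, 4 rose and none fell. Ndufaf6 was at 2.36, 2.51 and 1.81 FPKM without DA and at 4.24, 5.16 and 4.19 with DA, a log2 change of 0.78 (SE 0.11, limma adjusted p = 1.9e-05). Ndufaf4 was at 5.35, 5.01 and 4.91 FPKM and then at 8.60, 8.64 and 8.18, a change of 0.64 (SE 0.05, limma adjusted p = 6.8e-08). In both, the treated libraries were all above the untreated ones. Ndufaf8 rose by 0.54 and Ndufaf5, which acts early in the assembly of the complex, by 0.48. Their levels are low, and a log2 change of FPKM + 1 understates the change of low genes.

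The 6 complex I subunit genes that rose were Ndufab1, Ndufa5, Ndufa9, Ndufs5, Ndufb6 and Ndufa12. Ndufab1, which encodes the mitochondrial acyl carrier protein and also serves fatty acid and iron-sulfur cluster synthesis, was at 50.2, 49.6 and 51.6 FPKM without and 64.4, 69.9 and 71.1 with DA (log2 change 0.43, SE 0.04, limma adjusted p = 1.3e-07). Core genes of the complex moved less. Ndufs1, the largest iron-sulfur subunit, was at 0.18 (limma adjusted p = 0.00025), and Ndufv1, which binds NADH, at 0.13.

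Only Atp5g1 rose in complex V. It was at 104, 98.0 and 101 FPKM without DA and at 143, 144 and 147 with DA, a log2 change of 0.51 (SE 0.04, limma adjusted p = 2.0e-08). Atp5g1, Atp5g2 and Atp5g3 encode the same mature c subunit with different import sequences. The share of Atp5g1 in their summed FPKM was 23.6% ± 0.368 (SD, n = 3) in WT M2 and 29.2% ± 0.850 in DA-treated WT M2, and it was 23.3% ± 0.590 and 23.5% ± 0.738 in DRD5-/- M2 without and with DA. The share of Atp5g3 went the other way in WT, from 31.2% ± 0.331 to 26.6% ± 0.170. Atp5b changed by 0.26, just under 1.2-fold (limma adjusted p = 2.0e-07).

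The 3 members that fell with DA in WT M2 were Cox7a2l, Uqcrh and Ndufa4l2. Cox7a2l is of the VIIa family and encodes no regular complex IV subunit. It was at 204, 204.5 and 195 FPKM without DA and at 117, 111 and 113.5 with DA. The groups did not overlap, and the log2 change of FPKM + 1 was -0.82 (SE 0.03, limma adjusted p = 2.2e-11). Uqcrh, the acidic hinge protein of complex III, was at 171, 163 and 182 FPKM and then at 110, 105 and 111.5, a change of -0.65 (SE 0.04, limma adjusted p = 6.0e-09). The third, Ndufa4l2, a paralog of Ndufa4 known to be induced under low oxygen, was near the filter, at 1.53, 1.12 and 1.26 FPKM without and 0.42, 0.83 and 0.57 with DA (log2 change -0.52). Cox4i1, Cox5a and Sdha were also on the lower side, at -0.25, -0.17 and -0.23 (limma adjusted p = 5.0e-05, 0.0027 and 2.3e-05), each under 1.2-fold. Marker sums moved with the same treatment: from 621 to 641 up to 1664 to 1700 FPKM for 8 M2 markers, from between 10719 and 10890 down to between 8348.5 and 8387.6 for 8 macrophage markers, and from 50.6 to 53.4 down to 25.0 to 25.7 for 5 osteoclast markers. Lyz2 was the highest of these macrophage markers, at 4732.7 to 7336.6 FPKM over the M2 libraries. The part of the markers in these changes was not tested.

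**Figure D3:**
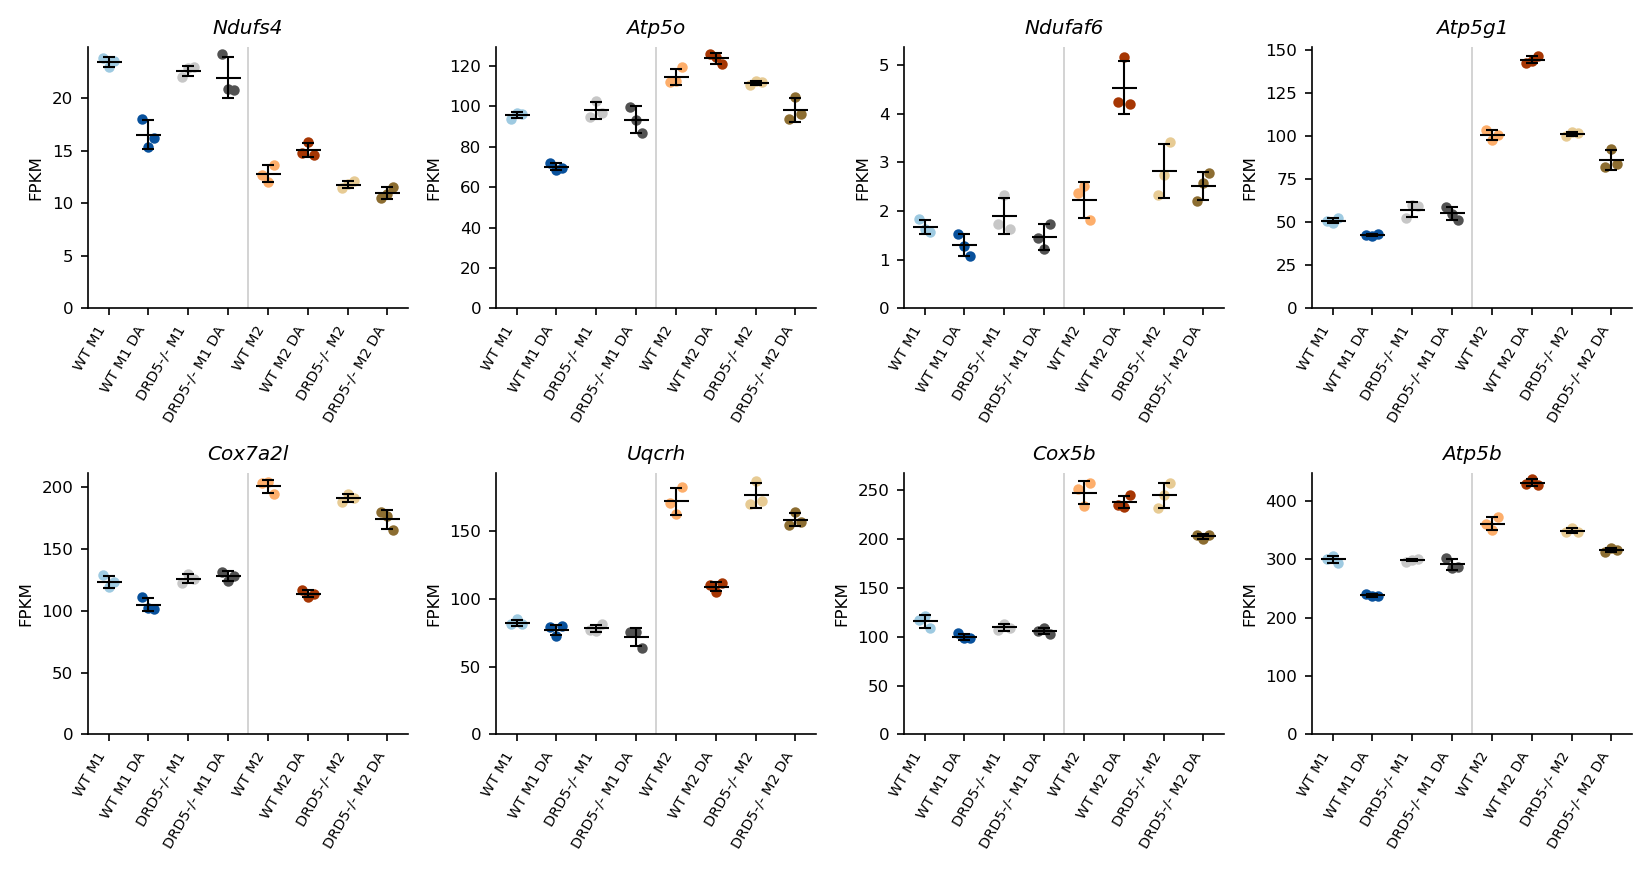
FPKM of 8 members (vertical axes from 0, different ranges) in the 24 libraries by group; points are libraries and the bar and whiskers are the mean and SD of 3. Ndufs4, Atp5o and Atp5b are lowest of the M1 groups in DA-treated WT, Ndufaf6 and Atp5g1 are highest in DA-treated WT M2, Cox7a2l and Uqcrh drop in that group to 117 FPKM or less, and Cox5b is lowest of the M2 groups in DA-treated DRD5-/- cells.

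In DRD5-/- M2 BMDMs, DA went with slightly lower values across the chain. The difference was negative in 87 of 90 members, and the median was -0.19 beside 0.01 over all genes. Most of these differences were under 1.2-fold, and only 3 members passed the full threshold, all lower, where 0.652% of all genes fell and 3.37% rose. At an adjusted p under 0.05 with no minimum change, 65 of 90 members were lower and none higher, or 72.2%, where 14.1% of all genes were lower and 18.1% higher.

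The 3 that fell were Cox5b, Atp5mpl and Atp5e. Cox5b, a zinc-binding complex IV subunit, was at 232, 245 and 258 FPKM without DA and 204, 200.3 and 204 with DA, a change of -0.27 (SE 0.04, limma adjusted p = 0.00022). Atp5mpl, a small membrane subunit of ATP synthase, was at 76.5, 85.4 and 84.0 FPKM and then at 64.4, 67.8 and 66.4 (log2 change -0.30, SE 0.04, limma adjusted p = 0.00019), and Atp5e, the ε subunit, changed by -0.29. In all 3 the groups did not overlap.

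By complex, the 65 members were 16 of 16 in complex V, 11 of 13 in complex IV, 6 of 8 in complex III, 3 of 4 in complex II and 29 of 40 in complex I, and none of the 8 assembly factors. The median change was -0.21 in complex V and -0.20 in complex IV, compared with -0.10 for the assembly factors. Among the core genes, Atp5b was at -0.14 (limma adjusted p = 0.0005), Cox4i1 at -0.25 (adjusted p = 0.00038) and Sdhb at -0.26 (adjusted p = 0.00023), while Ndufs1 was at 0.00 and Sdha at -0.06. The members have short transcripts, with a median of 617 bases beside 1357 over all genes tested in M2. With each library's trends over transcript length and GC content removed, the median change was -0.12, 41 members were lower at an adjusted p under 0.05, and 1 passed the full threshold, none of the 3 named above among them. With no filter on low values none passed, and after rescaling by the median of ratios 15 did, all lower. Without replicate 3 of the DA-treated DRD5-/- M2 libraries none passed the full threshold, without replicate 2 of that group 8 did, and over all single libraries left out between 51 and 66 members were lower at an adjusted p under 0.05.

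Without DA, the 2 genotypes did not differ past the threshold in any of the 90 members in M2 (limma), where 4.15% of all genes were lower in DRD5-/- and 1.37% higher. At an unadjusted p under 0.05 there were 17 members, and at an adjusted p under 0.05 there were 5, or 5.56%, where 26.6% of all genes passed. The log2 differences ranged from -0.20 to 0.24, with a median of -0.02.

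For some members the effect of DA in M2 differed between the genotypes, by the test of that difference. It was higher in WT for 29 of 90 members and lower for 3, where 22.8% of all genes were higher and 20.4% lower. The shares of the members were 32.2% and 3.33%, and the median difference was 0.24 beside 0.01 over all genes. The assembly factors Ndufaf6, Ndufaf4, Ndufaf8 and Ndufaf5 were at 0.89, 0.69, 0.64 and 0.60. Atp5g1 was at 0.75 (SE 0.05, limma adjusted p = 2.4e-08), Ndufab1 at 0.69, Uqcrq at 0.48, Atp5b at 0.40 (SE 0.03, adjusted p = 1.1e-07), Sdhb at 0.38 and Cox7a2 at 0.31. The 3 with a lower effect in WT were Cox7a2l at -0.68, Ndufa4l2 at -0.68 and Uqcrh at -0.50. The looser condition of an adjusted p under 0.05 was met by 64 members, or 71.1%, near the 68.5% of all genes that passed. With each library's trends over transcript length and GC content removed, 20 members were higher and 4 lower, and the median difference was 0.13. With no filter on low values 21 were higher and 2 lower, and after rescaling by the median of ratios 30 and 3. With DA in both genotypes, 38 members were higher and 3 lower in WT than in DRD5-/- M2, where 29.2% of all genes were higher and 20.4% lower. The members' shares were 42.2% and 3.33%. The higher ones included 17 complex I genes, 5 assembly factors and 8 of the 16 complex V genes, with Atp5g1 at 0.74 and Ndufaf4 at 0.77. Under the looser condition there were 69, or 76.7%, near the 77.1% of all genes that passed. With length and GC trends removed, 27 members were higher and 3 lower in this comparison of DA-treated cells.

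For DA in WT, the effect in M1 was also set against that in M2. It was lower in M1 for 32 of 90 members and higher for 2, where 28.2% of all genes were lower and 17.6% higher. The members' shares were 35.6% and 2.22%. The 32 included 15 complex I genes, 4 assembly factors, 8 complex V genes, 3 complex III genes, Sdhb and Cox7c. Atp5b was at -0.59 (SE 0.04, limma adjusted p = 1.4e-12), Atp5g1 at -0.76 and Ndufaf6 at -1.002. Cox7a2l and Uqcrh were the 2 that were higher, at 0.58 and 0.55.

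Between the stimuli themselves, members were lower in M1 than in M2 in both genotypes without DA. The M1 and M2 files list different genes, 18063 and 17786 in number, and the reason is not known. Stimulus and any difference in how the files were made thus cannot be told apart in these levels. Over all genes the median was -0.39 in WT and -0.37 in DRD5-/- cells, so changes are also given against that shift. In WT, 68 of 90 members were lower and 1 higher in M1, where 54.9% of all genes were lower and 22.6% higher. The members' median was -0.63, which is 0.24 below that of all genes, and 60 of 90 lay below it. In DRD5-/- cells, 67 were lower and 1 higher, where 53.8% of all genes were lower and 23.4% higher, with a median of -0.68. After rescaling by the median of ratios over all 24 libraries, 38 members were lower and 11 higher in WT and 46 and 8 in DRD5-/- cells, with medians of -0.19 and -0.29, and 14 and 7 of the called members changed sign.

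Complex I genes had the lowest median of the complexes in the contrast of M1 with M2, -0.81 in WT, compared with -0.60 in complex III, -0.48 in complex V, -0.35 in complex IV and -0.31 in complex II. After rescaling by the median of ratios, the means of complexes II and IV were slightly higher in WT M1 than in WT M2, by 0.0778 and 0.0209. Ndufa12 was at 27.7, 27.4 and 23.9 FPKM in WT M1 and at 96.8, 92.6 and 92.2 in WT M2, a log2 difference of -1.80 (SE 0.08, limma adjusted p = 3.3e-16). Ndufb4 was at -1.45 and Ndufs8, which carries 2 iron-sulfur clusters, at -1.42. Among assembly factors, Ndufaf2, a paralog of Ndufa12 that holds its place during assembly, was at 1.71, 2.50 and 2.01 FPKM in WT M1 and at 9.23, 9.13 and 10.3 in WT M2, a difference of -1.78, and Ndufaf4 was at -1.69. Ndufs4 was the 1 member past the threshold in the other direction. It was at 23.8, 22.9 and 23.5 FPKM in WT M1 and 12.7, 12.0 and 13.7 in WT M2 (log2 difference 0.82), and the difference was 0.88 in DRD5-/- cells.

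In the other complexes, Sdha was at -0.86 and Uqcr11 at -1.34. Cox5b was at -1.09, Cox4i1 at -0.88 and Atp5g2 at -1.34. The share of Atp5g2 in the c subunit genes was 37.4% ± 0.906 in WT M1 and 45.2% ± 0.571 in WT M2 (SD, n = 3). Stromal markers summed to 4.40 to 5.27 FPKM over all M1 libraries and to 78.98 to 128 over all M2 libraries, and their part in these differences was not tested.

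**Figure D4:**
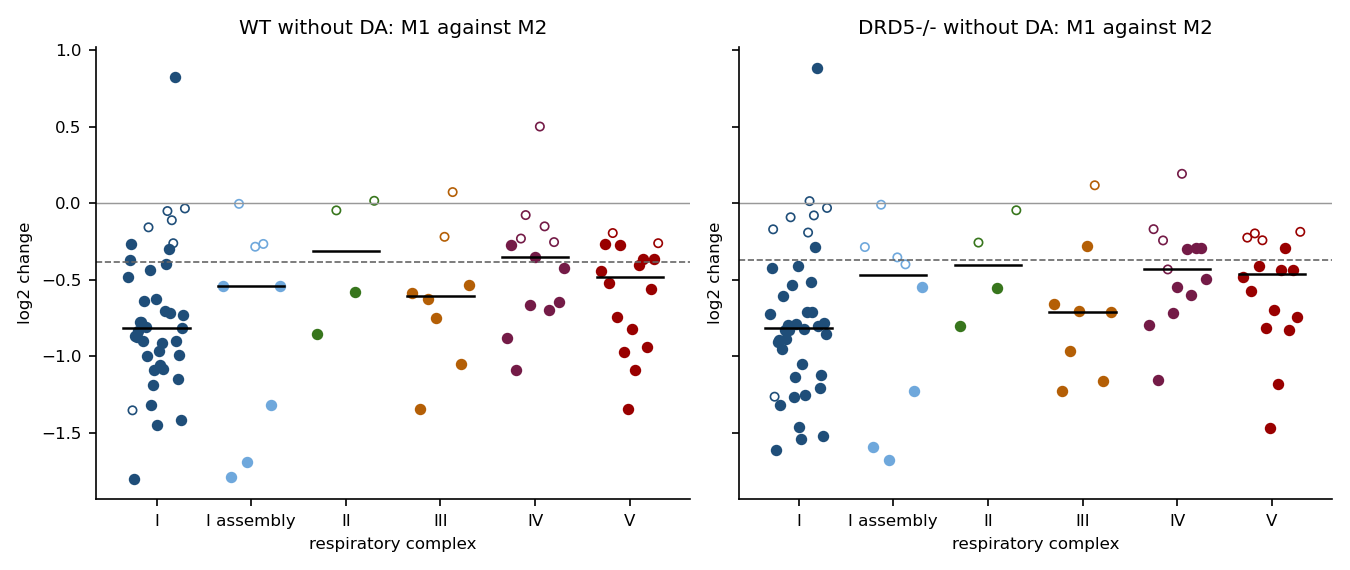
Log2 difference of M1 against M2 (vertical axis, log2 of FPKM + 1) of each member by complex, in WT (left) and DRD5-/- cells (right) without DA; filled points passed the threshold, short bars are the medians of a complex, and the dashed line is the median of all genes, -0.39 and -0.37. Most complex I genes lie below that line, and Ndufs4 is the filled point above 0 in each panel, at 0.82 and 0.88.

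The isoforms of complex IV that are common to most tissues made up nearly all of their pairs. Cox4i1 was at least 99.41% of the sum with Cox4i2, the lung and hypoxia isoform, in every library, Cox6a1 at least 99.16% of the sum with the muscle isoform Cox6a2, and Cox6b1 at least 99.66% of the sum with the testis isoform Cox6b2. Ndufa4 was at least 99.05% of its sum with Ndufa4l2. Within the 3 genes of the VIIa family, Cox7a2l took 75.0% ± 0.134 (SD, n = 3) in WT M2 and 61.8% ± 0.900 in DA-treated WT M2, and 73.8% ± 0.828 and 75.1% ± 1.38 in DRD5-/- M2 without and with DA. Cox7a2 itself did not pass in WT M2.

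Genes of the pathway outside the naming rule were counted too, beside the same backgrounds: 9.60% of all genes fell and 4.73% rose with DA in WT M1, and 25.9% rose and 20.4% fell in WT M2. Of 13 partner genes, such as cytochrome c and the ADP/ATP carriers, 5 fell and none rose with DA in WT M1 (38.5% lower), and 5 rose and 2 fell in WT M2 (38.5% and 15.4%). Cycs, cytochrome c, was at -0.41 in M1 and 0.52 in M2, and Higd2a, a complex IV assembly protein, at -0.65 in M2. Of the assembly factors not named Ndufaf, 3 of 38 fell in WT M1, or 7.89%, below the background, and 13 of 39 rose in WT M2, or 33.3%, led by Cox18 at 0.69, Ecsit at 0.64, Nubpl at 0.63 and Cox10 at 0.56. Of 20 genes of protein import, outer membrane channels and mitochondrial shape, 6 fell in WT M1 (30%) and 12 rose in WT M2 (60%). The import genes Tomm70a and Tomm40 were at -0.65 and -0.64 in M1 and at 0.69 and 0.77 in M2.

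Of 21 genes of the tricarboxylic acid cycle and pyruvate dehydrogenase, which supply the chain with NADH and succinate, 5 fell in WT M1 (23.8%) and 7 rose and 2 fell in WT M2 (33.3% and 9.52%), the last below the 20.4% of all genes. Idh2 was at 1.11 and Suclg2 at 0.84 in WT M2, while Acod1, which diverts aconitate to itaconate, was at -0.75 and Mpc1, of the pyruvate carrier, at -0.54. Among the regulators of mitochondrial biogenesis, 1 of 14 fell in WT M1, which was Hif1a at -0.65, and 4 of 15 rose in WT M2, which were Myc at 1.48, Tfb1m at 0.86, Pprc1 at 0.66 and Polg at 0.56. These shares, 7.14% and 26.7%, are near the backgrounds of 9.60% and 25.9%. The list does not separate genes that raise biogenesis from those that lower it, so its counts give no direction for biogenesis. In DRD5-/- cells no gene of these 5 lists passed with DA in M1. In DRD5-/- M2, Slc25a5 (-0.27), Etfb (-0.30) and Timm10 (-0.31) fell and Hif1a (0.30) rose.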

How the data were processed

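RNA-seq libraries of 24 BMDM cultures were used, 3 in each of 8 groups of genotype, stimulus and DA, grouped by the labels. The authors sequenced on a BGISEQ-500, mapped filtered reads with HISAT2 to GRCm38.p5 by their methods (the submitters' processing notes list Bowtie2 2.2.5 and GRCm38.p6), and deposited FPKM per library, with no counts. Low FPKM were within 5% of a whole multiple of a presumed single read for 47.2% (M1) and 46.0% (M2) of values only, so reads were not recovered and depth is unknown. Genes at 1 FPKM or more in at least 3 libraries entered linear models of log2(FPKM + 1) in limma 3.58.1 under R 4.3.3, with group means and a trend of the variance with level, on the 12 libraries of a stimulus or on all 24 for contrasts between stimuli, and adjusted by Benjamini-Hochberg over all genes. The fit was tested on simulated data. Lengths and GC content came from GENCODE M21, promoters from RefSeq. Members, gene lists and naming rules were chosen with earlier results of these data known. Genes were named by a rule: core subunits, isoform pairs, the extremes of level in each complex, up to 3 members per complex and direction with the largest change past the threshold in each comparison, and members whose DA effect in WT differed between stimuli. Values of 1 core subunit gene are not reported here. Of the other lists up to 4 genes each were named by size of change. Alternatives tried were median-of-ratios scaling, a pseudocount of 0.1, all genes with no filter, only the compared groups, a replicate block, other thresholds, removal of length and GC trends, and each library left out.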

Additional observations from a re-analysis of the deposited data

Results flagged for a closer look

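The effect of DA in WT cells differed between M1 and M2 past the threshold in 34 of the 90 members, by the limma test of the difference of the 2 effects. The members' shares were 35.6% with a lower and 2.22% with a higher effect in M1, where 28.2% and 17.6% of all genes passed. Passing this test thus does not by itself set the members apart. Values are the log2 change with DA in M1 minus that in M2, so a negative value is a lower effect in M1. Among assembly factors it was -1.002 for Ndufaf6, -0.94 for Ndufaf5, -0.92 for Ndufaf8 and -0.71 for Ndufaf4.

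In complex I it was -0.75 for Ndufab1, -0.70 for Ndufs4, -0.57 for Ndufa12, -0.52 for Ndufb6, -0.51 for both Ndufb8 and Ndufb4, -0.45 for Ndufs7, -0.43 for both Ndufa9 and Ndufb3, -0.42 for Ndufa6, -0.41 for Ndufa10, -0.39 for Ndufv2, -0.37 for both Ndufv1 and Ndufa8, and -0.33 for Ndufs1. In complex II it was -0.35 for Sdhb, and in complex III -0.48 for Uqcrc1, -0.47 for Uqcrq and -0.42 for Uqcrc2.

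In complex IV it was -0.33 for Cox7c. In complex V it was -0.76 for Atp5g1, -0.59 for Atp5b, -0.55 for Atp5o, -0.48 for Atp5g2, -0.45 for Atp5f1, -0.37 for Atp5c1, -0.33 for Atp5a1 and -0.29 for Atp5d. The effect was higher in M1 for Cox7a2l (0.58) and Uqcrh (0.55). The background was 28.2% of all genes with a lower and 17.6% with a higher effect in M1. After rescaling by the median of ratios, 23 members were lower and 2 higher.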

How the results depend on the processing

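Counts are of members past the threshold unless stated. At an adjusted p under 0.05 with no minimum change they were 54 for DA in WT M1, 29 for the interaction in M1, 8 for genotype without DA in M1, 49 for genotype with DA in M1, 54 for DA in WT M2, 65 for DA in DRD5-/- M2, 64 for the interaction in M2, 5 for genotype without DA in M2 and 69 for genotype with DA in M2. At 2-fold they were 17 and 19 for M1 against M2 in WT and DRD5-/- cells, 1 for the difference of DA effects between stimuli, and 0 for the other comparisons that had any. With no filter they were 7 for DA in WT M1, 3 for its interaction, 0 for genotype without DA in M1 and 0 for DA in DRD5-/- M2. With median-of-ratios scaling they were 4 for DA in WT M1, 0 for its interaction and 15 for DA in DRD5-/- M2, and 31 members in WT M1 had an adjusted p under 0.05. With a pseudocount of 0.1 there were 5, and with length and GC trends removed 1 for DA in DRD5-/- M2, of which 41 had an adjusted p under 0.05. With only the compared groups, genotype without DA in M1 gave 1. The counts at an adjusted p under 0.05 under other settings were added after the data were seen.

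With median-of-ratios scaling, the complex means in WT M1 changed with DA by -0.11 (I), -0.11 (assembly factors), -0.13 (II), -0.15 (III), -0.0788 (IV) and -0.14 (V), and the complex V mean in DRD5-/- M2 by -0.24. As log2 of summed FPKM, the change with DA was -0.25 for assembly factors in WT M1, and in WT M2 0.38 for assembly factors, -0.0517 for complex III and -0.16 for complex IV. The other changes of complex means with DA moved by less than the spread between libraries. For M1 against M2 without DA, rescaling moved all complex means. They were -0.29 (I), -0.31 (assembly factors), 0.0778 (II), -0.19 (III), 0.0209 (IV) and -0.15 (V) in WT, and -0.35, -0.29, -0.0037, -0.29, -0.0583 and -0.16 in DRD5-/- cells, so complexes II and IV turned direction in WT. As summed FPKM the difference moved to -0.74 (III), -0.55 (IV) and -0.55 (V) in WT and to -0.79 (I), -0.85 (III), -0.53 (IV) and -0.53 (V) in DRD5-/- cells.

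The replicate numbers did not pair the libraries: the mean correlation of deviations was -0.021 in M1 and -0.016 in M2 between libraries of the same number. With the replicate block, DA in WT M1 gave 12 and its interaction 8, DA in WT M2 gave 14 and DA in DRD5-/- M2 gave 3.

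Leaving out each library gave 9 to 15 for DA in WT M1, 0 to 0 for DA in DRD5-/- M1, 3 to 6 for the interaction, 0 to 3 for genotype without DA and 12 to 17 with DA. The interaction in M1 was 3 without WT M1 replicate 1, WT M1 replicate 2 or DA-treated WT M1 replicate 2. In M2 it gave 14 to 17 for DA in WT, 0 to 8 for DA in DRD5-/-, 27 to 32 for the interaction, and 0 to 0 and 36 to 43 for genotype without and with DA. Between stimuli it gave 65 to 71 in WT, 66 to 70 in DRD5-/- cells and 31 to 35 for the difference of DA effects. Members at an adjusted p under 0.05 were 42 to 56 for DA in WT M1, 46 to 54 in WT M2 and 51 to 66 in DRD5-/- M2. Values near 0 changed sign: Sdha for DA in DRD5-/- M2 with length and GC trends removed (0.0192), and Ndufs1 for DA in DRD5-/- M2, at -0.0176 to 0.0286 over the libraries left out. The causes were not tested. Depth is unknown, so no limit of detection can be given for genes listed at 0.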
